A study of Mus musculus with 18 samples.

Results

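The genes described here encode the subunits of the proteasome and the proteins that assemble, activate or inhibit it, measured in the cerebellum of adult mice with and without apolipoprotein D (ApoD). They were chosen by symbol alone: every gene whose symbol is Psma, Psmb, Psmc, Psmd, Psme, Psmf or Psmg followed by a digit, with the probe set of the highest mean over all arrays where a gene had several. The rule found 48 of the 12393 genes with a probe set of their own on the array, on 85 probe sets. Of these, 45 passed the filter on low values and were among the 8320 genes tested. Psma8, the alpha subunit of the testis, and Psmb8 and Psmb9, catalytic subunits of the immunoproteasome, stayed below that filter. Psme2, a subunit of the interferon-induced activator, is represented by a probe set that it shares with another gene and was not used. The symbols Psmc3ip and Psme3ip1 match the rule as well, but name partners of proteasome proteins and not proteasome parts. Psmc3ip acts in meiotic recombination, and the product of Psme3ip1 binds Psme3.

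The proteasome is the protease that degrades proteins tagged with ubiquitin. Its core is a barrel of stacked rings, in which the alpha subunits (Psma) form the gated outer rings and the beta subunits (Psmb) the inner rings with the protease sites. The regulatory cap consists of a base with a ring of ATPases (Psmc) that unfold the substrate and a lid (Psmd) that removes the ubiquitin. Dedicated chaperones build the core (Psmg) and the base, and other caps (Psme) can open the core without the ATPases. Oxidised proteins are among the substrates of the core. In neurons the proteasome serves protein quality control and the turnover of synaptic proteins.

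The study asked how ApoD, a lipid-binding lipocalin, bears on the response of the brain to oxidative stress from paraquat, a herbicide that generates superoxide. Male mice aged 80 ± 5 days were wild-type, ApoD knock-out or Human-ApoD transgenic, a gain-of-function line that carries ApoD over-expressed in neurons; the promoter of the transgene is not given in the sources used here. Each mouse received 1 intraperitoneal injection, either 30 mg/kg paraquat in 200 µl of sterile saline or a similar volume of saline, and the cerebellum was taken 6 h later. Each of the 6 groups holds 3 arrays, and each array carries the pooled RNA of 3 of the 9 mice of the group, so that errors here describe variation among pools and not among single mice. Treatment was taken from the titles, which mark the paraquat arrays; the unmarked ones were assigned to saline. All values below are log2 signals, and differences are differences of log2 signals.

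Apod itself read 12.38 to 12.76 on the wild-type arrays and, on the knock-out arrays, 8.22 to 8.50 under saline and 9.16 to 9.83 under paraquat. Knock-out minus wild-type was -4.09 under saline (SE 0.13, limma adjusted p = 4.9e-14). On the 6 transgenic arrays the probe set of the mouse gene read 12.13 to 12.35, and the level of the human transgene is not known from it. Transgenic minus wild-type was -0.17 under saline (limma adjusted p = 0.48) and -0.41 under paraquat (limma adjusted p = 0.04). In knock-out mice paraquat minus saline was 1.16 for Apod (limma adjusted p = 3.2e-05). Medians over all probe sets lay between 7.10 and 7.15 on all arrays but replicate 2 of knock-out paraquat, where the median was 6.98 and 40 of the 45 tested Psm genes were below their own mean. On that array the Psm genes deviated by -0.26 at the median, and all tested genes by -0.30. The values below that move most with this array are also given without it. In whole tissue, fewer cells of a type and less RNA per cell cannot be told apart.

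**Figure D1:**
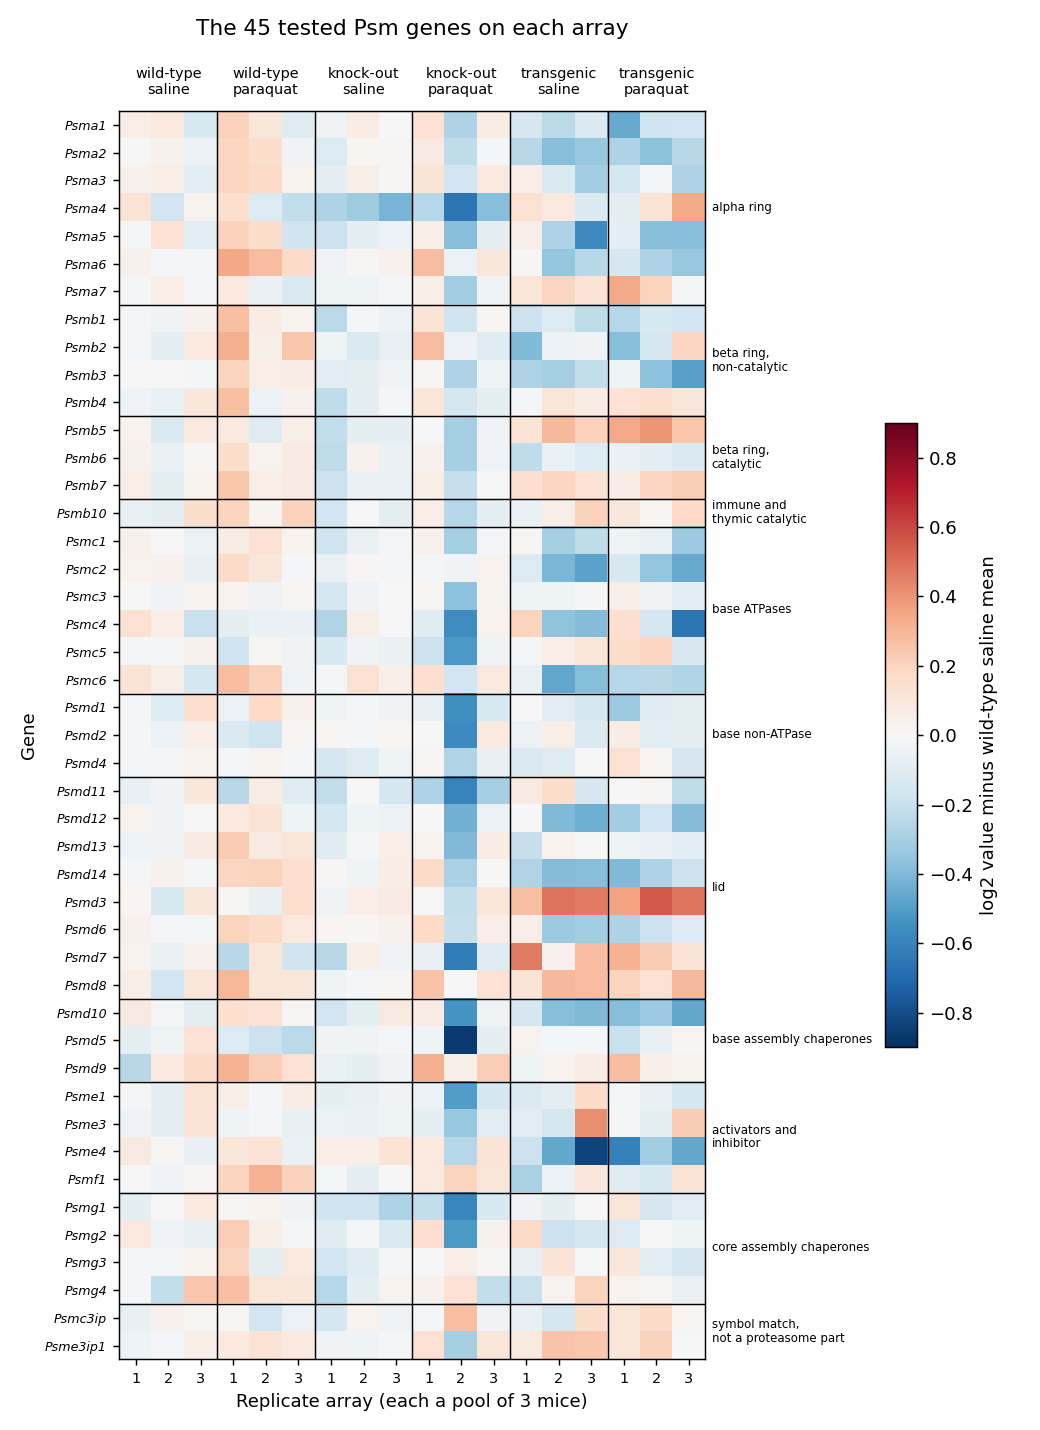
Heat map of the 45 tested Psm genes (rows, ordered by role) on the 18 arrays (columns, ordered by group); colour is the log2 signal minus the gene's mean over the 3 wild-type saline arrays, blue for lower and red for higher. Replicate 2 of knock-out paraquat stands out as a pale to blue column, with 40 of 45 genes below their own mean, and in the 6 transgenic columns some genes are blue and others red.

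The starts of 4 of these genes are shown because their values separated or were called in the transgenic comparisons described further on: Psma2, Psmc2 and Psme4 were lower there and Psmb5 was higher. Each sequence is the 250 bases before the annotated start in RefSeq on GRCm38.p6, read 5′ to 3′ on the strand of the gene. Psma2 lies at chr13:14612992-14613241 on the plus strand, Psmc2 at chr5:21785025-21785274 on the plus strand, Psme4 at chr11:30771525-30771774 on the plus strand and Psmb5 at chr14:54617996-54618245 on the minus strand. Capitals mark every match to 1 of 3 motifs, searched on both strands: TGACNNNGC, the core of the antioxidant and Nfe2l1 element, CCAAT, the box that the NF-Y factor binds, and CCGGAAG, the core that ETS factors bind, which reads CTTCCGG on the opposite strand.
Psma2: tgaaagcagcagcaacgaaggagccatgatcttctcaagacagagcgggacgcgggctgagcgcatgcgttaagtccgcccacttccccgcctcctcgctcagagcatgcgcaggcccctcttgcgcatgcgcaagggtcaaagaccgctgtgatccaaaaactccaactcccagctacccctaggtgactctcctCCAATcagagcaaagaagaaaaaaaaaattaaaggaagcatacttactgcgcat
Psmc2: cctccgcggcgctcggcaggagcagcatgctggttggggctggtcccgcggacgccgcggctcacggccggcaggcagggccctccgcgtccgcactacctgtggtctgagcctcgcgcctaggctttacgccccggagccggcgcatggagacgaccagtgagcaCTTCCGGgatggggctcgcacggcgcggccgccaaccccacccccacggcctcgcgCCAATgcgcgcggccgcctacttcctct
Psme4: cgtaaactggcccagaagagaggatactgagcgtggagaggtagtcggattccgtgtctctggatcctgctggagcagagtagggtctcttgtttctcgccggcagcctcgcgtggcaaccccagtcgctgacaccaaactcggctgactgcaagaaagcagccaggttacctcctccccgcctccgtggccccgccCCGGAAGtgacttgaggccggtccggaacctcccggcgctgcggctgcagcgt
Psmb5: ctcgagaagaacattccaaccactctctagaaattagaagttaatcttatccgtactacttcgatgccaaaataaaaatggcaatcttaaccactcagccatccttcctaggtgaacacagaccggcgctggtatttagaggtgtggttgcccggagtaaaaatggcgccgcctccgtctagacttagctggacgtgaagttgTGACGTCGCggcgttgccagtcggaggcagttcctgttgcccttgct

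In the window of Psma2 the CCAAT box starts 54 bases before the annotated start. The window of Psmc2 holds CCAAT at 28 bases and CCGGAAG on the opposite strand at 84 bases. Psme4 has CCGGAAG at 53 bases, and Psmb5 has TGACNNNGC at 47 bases before its start. RefSeq gave 43 windows for 40 of the 48 Psm genes, and 32851 windows over all genes. Psmd3 and Psmd7, both called higher on average in transgenic mice, were among the Psm genes without a window and could not be shown. Psmb5 was thus the only gene called higher there that had a window. TGACNNNGC was present in 5 of the 43 windows (11.6%), against 11.3% for the tested genes and 10.2% for all windows. For CCAAT the Psm windows counted 15 of 43 (34.9%), against 34.5% and 33.8%. CCGGAAG was present in 14 of 43 (32.6%), against 13.3% and 6.91%, with a GC content of 57.6% at the median in Psm windows, 60.4% in those of tested genes and 52.4% in all. In the windows of the Psm genes called lower on average in transgenic mice CCGGAAG was present in 7 of 14, and in those not called in 7 of 26. The counts for CCAAT were the same, and TGACNNNGC was present in 2 of 14 and 2 of 26. Counted by gene, CCGGAAG was present in 6 of 12 and 7 of 25, and CCAAT in 7 of 12 and 7 of 25. These groups of genes come from calls in the same data. The motifs were chosen after the expression values were known, and a match describes the letters of the window only.

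Paraquat left no Psm gene past the threshold in any genotype, which is a Benjamini-Hochberg adjusted p under 0.05 over all 8320 genes in limma. In wild-type mice 0 of 45 were called, with 2% of all genes called, and 2 of 45 against 829 of all genes (9.96%) had an unadjusted p under 0.05. The median difference, paraquat minus saline, was 0.08 for the Psm genes and 0.02 for all genes, and 35 of 45 were positive, against 55% of all genes. The smallest p belonged to Psma6, an alpha-ring subunit, which read 11.36, 11.31 and 11.30 under saline and 11.67, 11.60 and 11.49 under paraquat. These arrays did not overlap, and the difference of 0.26 (SE 0.11, 95% confidence interval 0.03 to 0.49) had an adjusted p of 0.37 in limma. Psmf1, an inhibitor of the core, read 8.69, 8.66 and 8.71 under saline and 8.89, 9.0 and 8.90 under paraquat. Here too the groups were apart, and the difference was 0.24 (SE 0.10, limma adjusted p = 0.40). With the mean of all its probe sets, the value of Psmf1 was 0.39 (limma adjusted p = 0.042), and with the wild-type groups fitted alone both genes passed, at adjusted p = 0.035 for Psma6 and 0.041 for Psmf1.

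Paraquat arrays lay wholly above the saline arrays for 7 Psm genes in wild-type mice, against 16.6% of all genes: Psma6, Psmf1, Psmd14, Psmd6, Psmb7, Psmb3 and Psme3ip1. The single gene wholly below, against 11.8% of all genes, was Psmd5, a chaperone of the base. It read 8.60, 8.64 and 8.80 under saline and 8.56, 8.49 and 8.44 under paraquat, a difference of -0.19. The 3 constitutive catalytic subunits differed by 0.01 for Psmb5, which cleaves after hydrophobic residues, up to 0.13 for Psmb7, which cleaves after basic residues. Among the other parts, the non-catalytic beta subunits ranged from 0.08 (Psmb4) to 0.21 (Psmb2) and the ATPases from -0.07 (Psmc5) to 0.15 (Psmc6).

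In ApoD knock-out mice 0 of 45 Psm genes were called by paraquat, with 2.26% of all genes called, and 2 of 45 had an unadjusted p under 0.05 against 1484 of 8320. The median difference was -0.03 for the Psm genes and -0.09 for all genes. Without replicate 2 of knock-out paraquat these medians were 0.07 and 0.01. Psmd11, a lid subunit, had the smallest p. It read 11.09, 11.31 and 11.16 under saline and 11.03, 10.71 and 11.01 under paraquat, so that the saline arrays were all higher, and differed by -0.27 (SE 0.12, limma adjusted p = 0.25), or -0.17 without replicate 2 of knock-out paraquat. Psmd9, a chaperone of the base, read 7.82, 7.80 and 7.85 under saline and 8.20, 7.93 and 8.10 under paraquat. The 3 paraquat arrays were above the saline arrays, and the difference was 0.25 (SE 0.11, limma adjusted p = 0.26). The lowest difference was that of Psmd5 at -0.31 (SE 0.15, limma adjusted p = 0.29), whose paraquat arrays read 8.64, 7.82 and 8.59 against 8.65, 8.65 and 8.66 under saline. Replicate 2 alone set most of that value, which was -0.04 without it. No overlap was seen for 3 genes higher under paraquat (Psmd9, Psmf1 and Psmg3), against 4.99% of all genes, and for 4 lower (Psmd11, Psmd5, Psmd1 and Psme3), against 17.7%.

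In ApoD transgenic mice the Psm genes had the narrowest range of paraquat differences, from -0.10 for Psmd11 to 0.12 for Psmb5, with 0 of 45 called. Over all genes the range was narrowest in transgenic mice too. The 5th to 95th percentiles were -0.19 to 0.16 there, -0.24 to 0.31 in wild-type and -0.43 to 0.26 in knock-out mice. No gene of the whole array was called in transgenic mice either (0%), and 0 Psm genes and 118 of all genes had an unadjusted p under 0.05. The 95% confidence intervals of the Psm genes spanned -0.43 to 0.37, and the groups overlapped for every one of them, against 1.18% of all genes wholly higher and 2.51% wholly lower under paraquat. Averaged over the genotypes, 0 of 45 were called, with 4.89% of all genes called, and 4 of 45 against 1498 of 8320 had an unadjusted p under 0.05. Psmd9 came closest, at 0.19 (SE 0.07, 95% confidence interval 0.05 to 0.33, limma adjusted p = 0.11). Without replicate 2 of knock-out paraquat its difference was 0.21 and it was called (limma adjusted p = 0.040). The largest negative average was -0.19 for Psmd5 (SE 0.09, limma adjusted p = 0.23), or -0.11 without that array. All intervals of this average lay between -0.38 and 0.33.

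The paraquat difference of the knock-out minus that of the wild-type was called for 0 of 45 Psm genes and 0% of all genes, with 0 Psm genes and 148 of all genes at an unadjusted p under 0.05. Its lowest value was -0.28 for Psmd1, a scaffold of the base (SE 0.17, limma adjusted p = 0.87), which was -0.13 without replicate 2 of knock-out paraquat. Its median was -0.10 against -0.12 for all genes, or 0.00 against -0.01 without that array. The paraquat difference of the transgenic minus that of the wild-type was called for 0 of 45 and 0.18% of all genes, with 1 Psm gene and 378 of all genes at an unadjusted p under 0.05. Psma6 had the lowest value, -0.32 (SE 0.15, 95% confidence interval -0.65 to 0.00, limma adjusted p = 1.0).

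**Figure D2:**
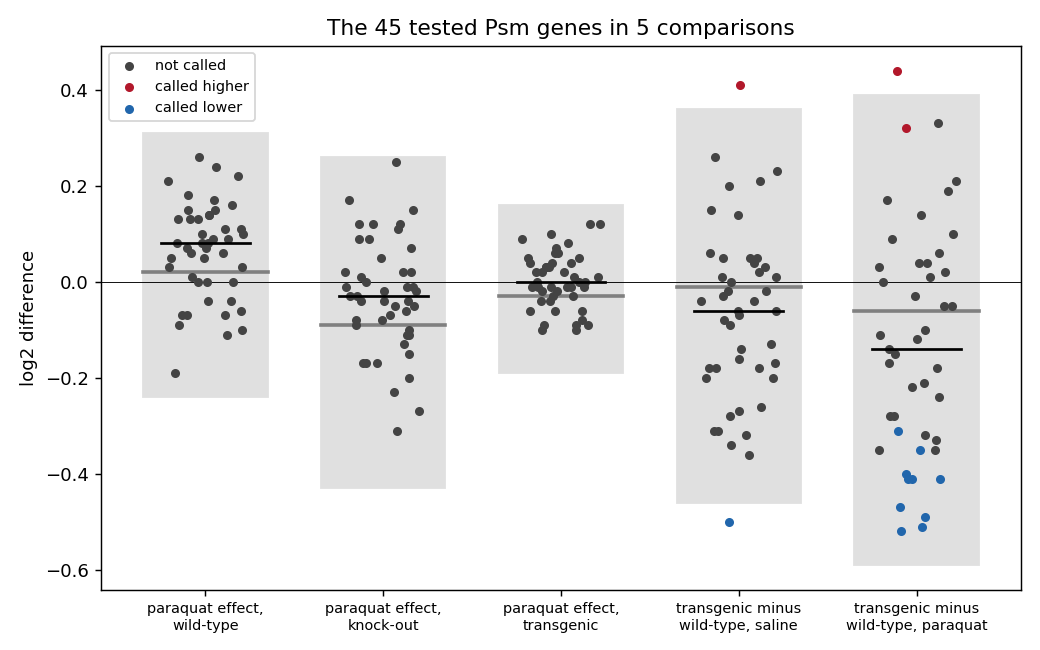
Log2 differences of the 45 tested Psm genes (points) in 5 comparisons, with called genes in red (higher) or blue (lower). The grey box spans the 5th to the 95th percentile of all 8320 tested genes, the grey line is their median and the black line the median of the Psm genes; coloured points appear in the transgenic comparisons, where 2 genes were called under saline and 12 under paraquat.

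The immunoproteasome replaces the catalytic subunits of the core in cells exposed to interferon. Psmb8 read 5.48 to 6.48 and Psmb9 5.77 to 6.75 over the 18 arrays, and the highest Psmb9 value was on replicate 2 of knock-out paraquat. In a fit without the filter, no comparison called either of them. Psmb10, the remaining immune subunit, passed the filter with 8.14 to 8.61, and its paraquat difference was 0.14 in wild-type and -0.01 in knock-out mice, or 0.07 in knock-out mice without replicate 2. Psme1, a subunit of the interferon-induced activator, differed by -0.17 in knock-out mice, where replicate 2 read 8.05 and the other paraquat arrays 8.50 and 8.40. Without replicate 2 the difference of Psme1 was -0.04. Of the fixed list of interferon and peptide-presentation genes, 12 of 20 were measured. Paraquat lowered 1 of them in knock-out mice, Irf9, a transcription factor of the interferon response (-0.57, limma adjusted p = 0.023). It called 0 in wild-type and transgenic mice, where 2 and 0 had an unadjusted p under 0.05.

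Loss of ApoD changed no Psm gene past the threshold. Under saline 0 of 45 were called, with 0.024% of all genes called, and 1 of 45 against 129 of 8320 had an unadjusted p under 0.05. That gene was Psma4, an alpha-ring subunit. It read 10.59, 10.30 and 10.50 in wild-type and 10.19, 10.15 and 10.05 in knock-out mice under saline, a difference of -0.34 (SE 0.13, 95% confidence interval -0.62 to -0.06, limma adjusted p = 1.0). Under paraquat it read 10.62, 10.35 and 10.25 in wild-type and 10.21, 9.82 and 10.09 in knock-out mice, a difference of -0.37 (SE 0.13, limma adjusted p = 0.37), or -0.26 without replicate 2 of knock-out paraquat. All 6 knock-out arrays were below all 12 other arrays, since the transgenic arrays read 10.34 to 10.81. Among the tested Psm genes Psma4 was alone in this, against 0.216% of all genes. Its separation was picked out after the values were seen.

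Across the other members the knock-out and wild-type arrays lay close. The median difference under saline was -0.06 for the Psm genes and 0.00 for all genes, and 37 of 45 were negative, while 49.6% of all genes were positive. Replicate 1 of knock-out saline had 35 of 45 genes below their own mean, and without it the median was -0.02 and 31 of 45 were negative. The knock-out arrays were wholly lower for 7 genes (Psma4, Psmg1, Psmg3, Psmd4, Psmc5, Psmd12 and Psmb3), against 10.3% of all genes, and wholly higher for 0, against 10.3%. Among them Psmg1, a chaperone of the core, differed by -0.21. The highest difference was 0.08, for Psme4. Under paraquat 0 of 45 were called, with 0.012% of all genes called, and 6 of 45 against 1097 of 8320 had an unadjusted p under 0.05. The median was -0.15 for the Psm genes and -0.12 for all genes, or -0.06 and -0.01 without replicate 2 of knock-out paraquat. Psmg1 differed by -0.32 (SE 0.11, limma adjusted p = 0.37), with 8.72, 8.74 and 8.68 in wild-type and 8.49, 8.12 and 8.57 in knock-out mice. Without replicate 2 of knock-out paraquat, which read 8.12, its difference was -0.18. Such separation downwards was seen for 9 Psm genes under paraquat, against 12.1% of all genes, and upwards for 0, against 2.16%. The single positive value was that of Psmc3ip, 0.14, which was 0.04 without that array. Without it 31 of 45 genes were negative in place of 44.

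The transgenic mice differed from wild-type mice in single subunits, in both directions. Under saline 2 of 45 Psm genes (4.44%) were called, with 6.36% of all genes called (1.98% higher and 4.38% lower), and 10 of 45 against 1999 of 8320 had an unadjusted p under 0.05. Psmd3, a scaffold subunit of the lid, was 1.33-fold higher, and Psme4, which forms an activator cap of its own, was 0.708-fold. Under paraquat 12 of 45 (26.7%) were called, with 19% of all genes called. Of the 12, 2 were higher, against 4.64% of all genes, and 10 were lower, against 14.3%. Over all genes the share of calls was thus high in this comparison too, and nothing is called particular to the proteasome from these counts. The transgenic arrays lay wholly above the wild-type arrays for 6 Psm genes under saline (all genes 14.5%) and 3 under paraquat (14.4%), and wholly below for 8 (18.2%) and 19 (27.6%). The count under saline was 0 without replicate 1 or 2 of wild-type saline or replicate 2 or 3 of transgenic saline, 1 without replicate 3 of wild-type saline, 7 without replicate 1 of transgenic saline and 6 without replicate 2 of knock-out paraquat. The count under paraquat was 4 without replicate 1 or without replicate 2 of wild-type paraquat, 7 and 6 without replicates 1 and 2 of transgenic paraquat, and 18 without replicate 2 of knock-out paraquat.

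The comparisons under saline and under paraquat share no arrays, and the arrays are fitted as independent. The deviations of same-numbered transgenic arrays of the 2 treatments had correlations of 0.16, 0.13 and 0.42. Of pairs with different numbers from different groups, 25 of 90 correlated over 0.1, up to 0.44, so a pairing is not established. The transgenic minus wild-type difference had the same sign in both treatments for 38 of 45 Psm genes (84.4%), 25 lower and 13 higher. For all genes this share was 78.8%. The mean of the 2 differences was fitted as well, a comparison added after the data were seen. It called 16 of 45 Psm genes (35.6%), with 31.4% of all genes called. Of these, 13 were lower, against 20.6% of all genes, and 3 were higher, against 10.8%. The median over the Psm genes was -0.08 and over all genes -0.03. Transgenic against knock-out mice, averaged in the same way, gave 14 of 45 (31.1%), with 30.4% of all genes called. Of these, 8 were higher, against 15.9%, and 6 lower, against 14.6%. Without replicate 2 of knock-out paraquat 20 were called, and 25 of 45 differences were negative in place of 21. In the average against wild-type mice 22 were called without that array. Both averages use the 6 transgenic arrays, and a replicate block left the counts of 16 and 14 as they were.

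Some markers of cell types and control probe sets differed between the transgenic and the other arrays. Their part in the differences of the Psm genes was not tested. The mean of the 3 choroid plexus markers measured of 5 was 7.23 to 8.92 on transgenic saline arrays and 8.46 to 9.68 on transgenic paraquat arrays, against 9.40 to 10.04 on all others. Against wild-type mice 3 of the 3 were lower under saline and 1 under paraquat. Markers of astrocytes and Bergmann glia, 7 of 7 measured, had means of 10.95 to 11.12 on transgenic arrays against 10.54 to 10.91. Of these, 2 of 7 were higher under saline and 3 under paraquat against wild-type mice. On average Gfap (0.64), Slc1a3 (0.45) and Slc1a2 (0.44) were higher, whereas Gja1 was lower (-0.27, limma adjusted p = 0.025). Over all genes 1.98% were higher and 4.38% lower under saline, and 4.64% higher and 14.3% lower under paraquat. Of 10 of 12 microglia markers measured, 1 was lower under saline and 3 under paraquat, and of 6 of 8 endothelial markers 0 and 3 were higher. The endothelial means were 8.08 to 8.24 under saline and 7.71 to 7.79 under paraquat in wild-type mice. In knock-out mice they were 8.10 to 8.23 and 7.53 to 7.86, and in transgenic mice 8.17 to 8.36 and 7.99 to 8.29. The 3 higher endothelial calls were thus made against wild-type paraquat arrays that lay below the wild-type saline arrays. Of the granule neuron markers, 8 of 8 measured with means of 10.41 to 10.76 over all arrays, 0 were called in limma under either treatment, and likewise 0 of 5 Purkinje neuron and 0 of 6 oligodendrocyte markers, with 0 to 2 of each list at an unadjusted p under 0.05. On average over treatments the granule markers Gabra6 (-0.28, limma adjusted p = 0.014) and Cbln1 (0.25, limma adjusted p = 0.015), the Purkinje marker Calb1 (-0.26, limma adjusted p = 0.011) and the oligodendrocyte marker Mag (0.26, limma adjusted p = 0.045) were called against wild-type mice. Of the leukocyte list 2 markers were measured. Against wild-type mice Ighm was lower under paraquat (-0.55, limma adjusted p = 0.03) and on average (-0.38, limma adjusted p = 0.022). It was not called under saline, and Cd3e was not called in these comparisons. Replicate 1 of both transgenic groups read 12.59 and 12.82 on the 3′ dap spike-in control against 10.91 to 11.55 elsewhere. On the middle probe set for ribosomal RNA, replicates 2 and 3 of both transgenic groups read 6.15 to 6.94 against at least 7.30 on the other arrays. The 3′ minus 5′ difference of the pyruvate carboxylase control was 1.82 and 1.95 on replicate 3 of the transgenic groups, against 2.25 to 3.16 elsewhere.

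**Figure D3:**
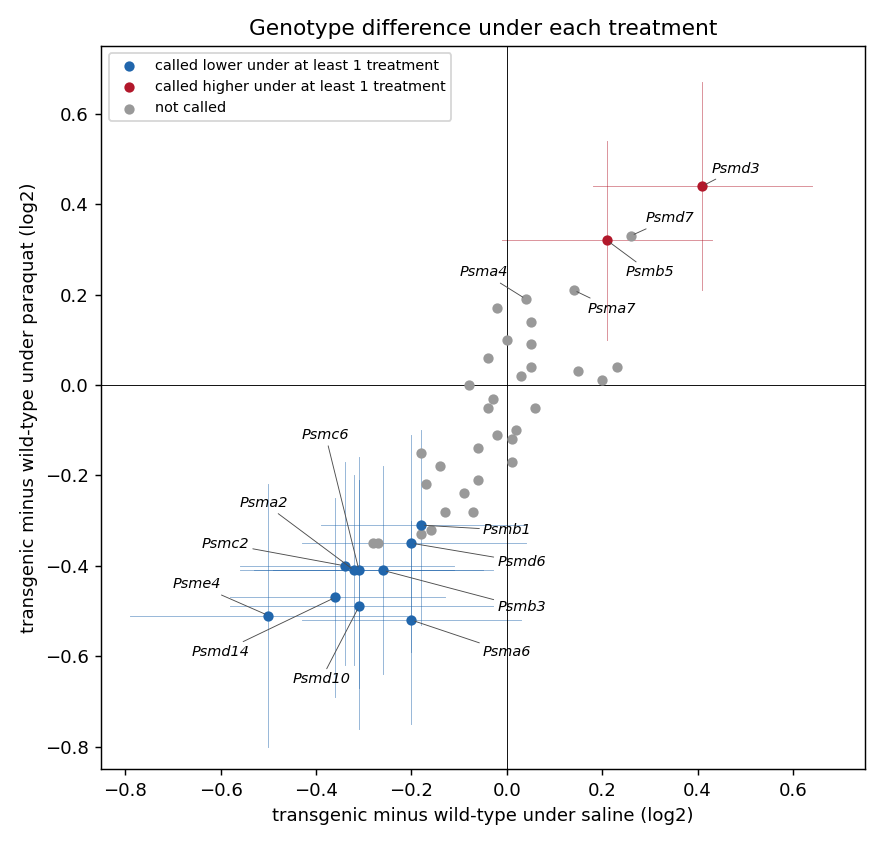
Log2 difference of transgenic minus wild-type mice for the 45 tested Psm genes, under saline on the horizontal and under paraquat on the vertical axis, with 95% confidence intervals drawn as lines for called genes. Psme4, Psmd14, Psma2 and Psmc2 lie low on both axes and Psmd3 and Psmb5 high on both, and 38 of 45 genes have the same sign on both.

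In the alpha ring 4 of 7 subunits fell on average and none rose, with 20.6% of all genes lower and 10.8% higher in that comparison. Psma2 read 11.58, 11.62 and 11.53 in wild-type and 11.33, 11.20 and 11.24 in transgenic mice under saline, and 11.77, 11.74 and 11.55 in wild-type and 11.30, 11.21 and 11.33 in transgenic mice under paraquat. The transgenic arrays were below every wild-type array in both treatments, and below the knock-out arrays, which started at 11.35. The difference was -0.41 under paraquat (SE 0.10, 0.752-fold, limma adjusted p = 0.0083) and -0.37 on average (limma adjusted p = 0.00086). Psma6 read 11.67, 11.60 and 11.49 in wild-type and 11.17, 11.04 and 10.98 in transgenic mice under paraquat, the lowest difference among the Psm genes at -0.52 (SE 0.11, 0.696-fold, limma adjusted p = 0.0031). Under saline its transgenic arrays at 11.33, 10.97 and 11.07 overlapped the wild-type range of 11.30 to 11.36. The paraquat difference of Psma6 shares the wild-type paraquat arrays described above, which were above the wild-type saline arrays. Psma5 (-0.31, limma adjusted p = 0.033) and Psma1 (-0.25, limma adjusted p = 0.029) passed on average alone. The other probe set of Psma5 above the filter had -0.03, tested on its own (limma adjusted p = 0.81). Psma4 and Psma7 did not pass against wild-type mice.

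Against knock-out mice Psma4 was 0.47 higher on average in transgenic mice (limma adjusted p = 0.0014), Psma7 0.22 higher (limma adjusted p = 0.035), Psma6 lower at -0.29 (limma adjusted p = 0.0089) and Psma2 lower at -0.27 (limma adjusted p = 0.0078). The Psma4 value rests on the low knock-out arrays described above.

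The inner ring held calls in both directions. Among the 4 non-catalytic subunits measured Psmb3 and Psmb1 were lower in transgenic than in wild-type mice under paraquat. Psmb2 and Psmb4 did not pass. Psmb3 read 11.02, 10.88 and 10.89 in wild-type and 10.78, 10.45 and 10.33 in transgenic mice, apart from each other and different by -0.41 (SE 0.11, limma adjusted p = 0.015). Psmb1 read 11.06, 10.86 and 10.82 against 10.53, 10.65 and 10.62, also apart, with a difference of -0.31 (SE 0.10, 0.805-fold, limma adjusted p = 0.038). On average over treatments Psmb3 had -0.34 (limma adjusted p = 0.0033) and Psmb1 -0.25 (limma adjusted p = 0.015). The other probe set of Psmb3 above the filter had -0.08 on average, tested on its own (limma adjusted p = 0.53). Those of Psmb1 had -0.10 and -0.11 (limma adjusted p = 0.50 and 0.73). Psmb5, the catalytic subunit that most proteasome inhibitors bind, went the other way. It read 10.67, 10.51 and 10.73 in wild-type and 10.76, 10.93 and 10.85 in transgenic mice under saline, and 10.73, 10.53 and 10.69 against 10.98, 11.04 and 10.89 under paraquat. All 6 transgenic arrays were above all 12 others, and Psmb5 rose by 0.32 under paraquat (SE 0.11, 1.25-fold, limma adjusted p = 0.041) and by 0.26 on average (limma adjusted p = 0.012). The other catalytic subunits did not pass against wild-type mice, with -0.18 for Psmb6, which cleaves after acidic residues, and 0.03 for Psmb7 under paraquat. Psmb10 had -0.05. Against knock-out mice Psmb5 rose by 0.39 (limma adjusted p = 0.00096) and Psmb7 by 0.24 (limma adjusted p = 0.014) on average.

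In the base 2 of 6 ATPases were lower in transgenic than in wild-type mice under paraquat, with 14.3% of all genes lower. The 3 non-ATPase subunits measured gave no call. Psmc2 read 11.24, 11.25 and 11.14 in wild-type and 11.09, 10.80 and 10.73 in transgenic mice under saline, and 11.38, 11.31 and 11.19 against 11.07, 10.86 and 10.76 under paraquat. The transgenic arrays were below all 12 others, since the knock-out arrays read 11.15 to 11.24. Its difference was -0.40 under paraquat (SE 0.11, 0.759-fold, limma adjusted p = 0.015) and -0.37 on average (limma adjusted p = 0.0014). Psmc6 read 10.53, 10.46 and 10.22 in wild-type and 9.99, 10.00 and 9.98 in transgenic mice under paraquat, and fell by 0.41 on the log2 scale (SE 0.12, 0.751-fold, limma adjusted p = 0.024). The average difference of Psmc6 was -0.36 (limma adjusted p = 0.0041). Under saline 1 transgenic array, at 10.19, lay within the wild-type range of 10.09 to 10.37. The highest difference of an ATPase was that of Psmc5, 0.14 under paraquat. Of the base chaperones, Psmd10, also known as gankyrin, fell: it read 8.11, 8.09 and 7.97 in wild-type and 7.58, 7.63 and 7.50 in transgenic mice under paraquat, a difference of -0.49 (SE 0.13, 0.714-fold, limma adjusted p = 0.014). Under saline the readings of Psmd10 were 8.04, 7.95 and 7.88 against 7.81, 7.58 and 7.56, again apart, and the average difference was -0.40 (limma adjusted p = 0.0033). The other base chaperones, Psmd5 and Psmd9, did not pass. Against knock-out mice Psmc6 (-0.32, limma adjusted p = 0.0092) and Psmc2 (-0.31, limma adjusted p = 0.0045) fell on average as well.

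The lid too held calls in both directions. Psmd14 is the subunit that cuts ubiquitin from the substrate. It read 11.30, 11.35 and 11.29 in wild-type and 11.04, 10.92 and 10.93 in transgenic mice under saline, and 11.50, 11.51 and 11.46 against 10.91, 11.03 and 11.12 under paraquat. The groups were apart in both treatments, and Psmd14 fell by 0.47 on the log2 scale under paraquat (SE 0.11, 0.721-fold, limma adjusted p = 0.0051) and by 0.41 on average (limma adjusted p = 0.00052). The knock-out arrays were at 11.02 to 11.48, the lowest being replicate 2 under paraquat, and reached into the transgenic range. Psmd3 read 9.13, 8.97 and 9.21 in wild-type and 9.38, 9.60 and 9.58 in transgenic mice under saline, and 9.12, 9.04 and 9.26 against 9.47, 9.66 and 9.59 under paraquat. All transgenic arrays were above all others, none of which exceeded 9.26. Psmd3 rose by 0.41 under saline (SE 0.11, 95% confidence interval 0.18 to 0.64, limma adjusted p = 0.031) and by 0.44 under paraquat (SE 0.11, 1.35-fold, limma adjusted p = 0.0094).

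Of the other lid genes, Psmd6 was lower in transgenic than in wild-type mice under paraquat. It read 10.71, 10.68 and 10.60 in wild-type and 10.23, 10.32 and 10.39 in transgenic mice, without overlap. The difference was -0.35 (SE 0.11, 0.783-fold, limma adjusted p = 0.037). Psmd12 passed on average at -0.31 (limma adjusted p = 0.012), and so did Psmd7 in the other direction at 0.29 (limma adjusted p = 0.035). The other probe set of Psmd7 above the filter had 0.06, and with the mean of all its probe sets the difference was 0.16 (limma adjusted p = 0.070). Of the 8 lid subunits measured, 2 rose and 3 fell on average, against the same shares of 10.8% and 20.6% of all genes. Against knock-out mice Psmd3 (0.44, limma adjusted p = 0.00053), Psmd7 (0.41, limma adjusted p = 0.0053) and Psmd11 (0.24, limma adjusted p = 0.042) rose and Psmd14 fell (-0.31, limma adjusted p = 0.0049). The other probe sets of Psmd11 above the filter had 0.25, 0.07 and 0.13, tested on their own (limma adjusted p = 0.089, 0.76 and 0.31). For Psmd7 the other one had 0.18 (limma adjusted p = 0.14).

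**Figure D4:**
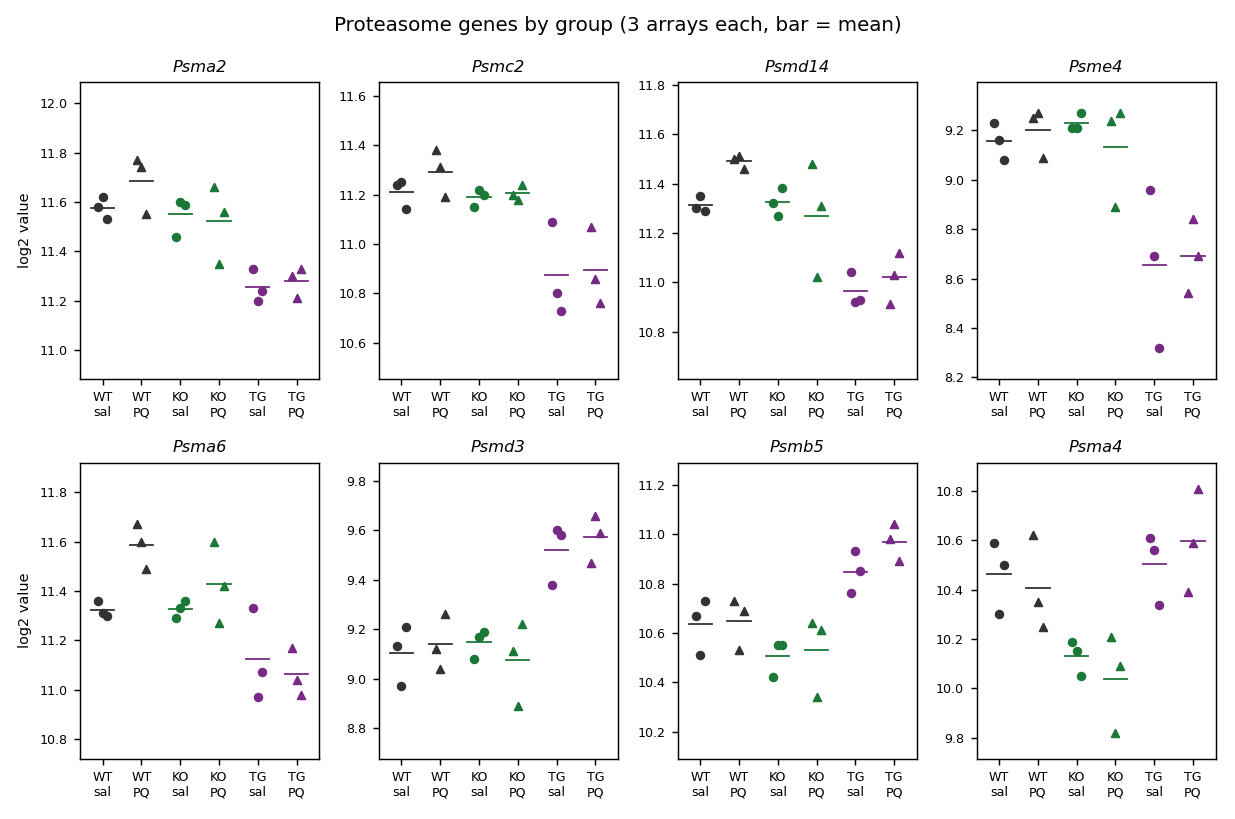
Log2 signal of 8 Psm genes on each array by genotype, circles for saline, triangles for paraquat and bars for group means of 3 arrays. Psma2 and Psmc2 are lower and Psmd3 and Psmb5 higher on all 6 transgenic arrays than on the 12 others, and Psma4 is lower on all 6 knock-out arrays.

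Among activators and the inhibitor Psme4 fell in both treatments. This large cap opens the core without ATP and is known from the degradation of acetylated histones in germ cells. Psme4 read 9.23, 9.16 and 9.08 in wild-type and 8.96, 8.69 and 8.32 in transgenic mice under saline, and 9.25, 9.27 and 9.09 against 8.54, 8.84 and 8.69 under paraquat. The transgenic arrays were lower in each treatment, with differences of -0.50 under saline (SE 0.14, 95% confidence interval -0.79 to -0.21, limma adjusted p = 0.038) and -0.51 under paraquat (SE 0.14, 0.702-fold, limma adjusted p = 0.014). The knock-out arrays read 8.89 to 9.27 and overlapped them through replicate 2 of knock-out paraquat. Against knock-out mice the average difference of Psme4 was -0.51 (limma adjusted p = 0.00093). Psme1, Psme3 and Psmf1 did not pass. None of the 4 core chaperones passed against wild-type mice, with values from -0.17 (Psmg4) to -0.05 (Psmg1) under paraquat. Psmg1 was 0.22 above the knock-out arrays on average (limma adjusted p = 0.040). The symbol matches Psmc3ip and Psme3ip1 had 0.17 and 0.01 under paraquat.

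Separation from both other genotypes under both treatments was shown by 4 of 45 Psm genes, against 5.59% of all genes: Psma2 and Psmc2 lower (all genes 2.67%) and Psmb5 and Psmd3 higher (all genes 2.92%). Over 14 other settings and left-out arrays of the paraquat comparison, the calls of Psma2, Psma6 and Psmd14 held in 14, with adjusted p up to 0.044, 0.020 and 0.025 in limma. That of Psmd3 was lost without replicate 2 of wild-type paraquat, where the difference was 0.39. Psmd10 was lost without replicate 1 or 2 of wild-type paraquat (-0.46 and -0.47). Psme4 was lost without either of these arrays or without replicate 1 of transgenic paraquat (-0.49, -0.48 and -0.44). The Psme4 call held in 10 of 14, so it was also lost under a setting other than these arrays. For Psmb3, Psmc2, Psmc6, Psmd6, Psmb1 and Psmb5 the call was lost without 1 of 3 to 5 of the 6 arrays compared. Replicate 1 of wild-type paraquat was among these arrays for each gene, and the differences kept their sign. These calls held in 10 of 14 for Psmb3 and Psmc2, 9 for Psmc6 and Psmd6 and 8 for Psmb1 and Psmb5. The calls of Psmb1 and Psmb5 were thus also lost under settings other than these arrays. Under saline the call of Psmd3 was lost without replicate 1 or 2 of wild-type saline or 2 or 3 of transgenic saline (0.35 to 0.42). The saline call of Psme4 was lost without any of the wild-type saline arrays or without replicate 2 or 3 of transgenic saline (-0.54 to -0.33). That call held in 6 of 14, so it was also lost under settings other than these arrays.

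On average over treatments, 12 of the 16 calls against wild-type mice held in all 20 other settings, and Psmb1 in 19. The exceptions were Psma1, Psma5 and Psmd7, lost without any 1 of 6 to 9 arrays. Their calls held in 13 of 19, 11 of 20 and 9 of 20 settings. For Psmd7 settings other than a left-out array thus removed the call as well. Of the 14 calls against knock-out mice, those of Psma7, Psmd11 and Psmg1 were lost without any 1 of 6 or 7 arrays. For Psmd11 replicate 2 of knock-out paraquat was among them (0.19 without it). The calls of Psma7, Psmd11 and Psmg1 held in 12, 9 and 10 of 19 settings. For Psmd11 and Psmg1 settings other than a left-out array thus removed the call as well.

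Other probe sets of the same genes gave a second reading, since 19 of the tested genes had 26 further probe sets above the filter. Each probe set was tested on its own here, with p-values adjusted over all of them. In transgenic against wild-type mice under paraquat, 6 of the 26, in 4 genes, had the opposite sign. The other probe sets of Psmc6 had -1.15 (limma adjusted p = 0.0015) and -0.96 (limma adjusted p = 0.0058), beyond the -0.41 of the one used. Psmd6 had -0.65 (limma adjusted p = 0.010), Psma6 -0.52 (limma adjusted p = 0.0072), Psmc2 -0.37 (limma adjusted p = 0.014) and Psme4 -0.45 (limma adjusted p = 0.034) on another probe set, each in the direction of the one used. The remaining probe set of Psme4 had -0.10, and another of Psmb3 -0.17. For Psmb4 the signs disagreed by over 0.3, with -0.37 on the second probe set against 0.04. The 2 other probe sets of Psmf1 had -0.71 (limma adjusted p = 0.0070) and -0.59 (limma adjusted p = 0.022), whereas the one used had -0.28 and was not called. In wild-type mice those 2 gave paraquat differences of 0.53 and 0.54 (limma adjusted p = 0.18 for both) against 0.24. Opposite signs by over 0.3 were also found for Psmc6 in the paraquat difference of knock-out mice and for Psmb1 and Psmd11 in knock-out against wild-type mice under paraquat.

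**Figure D5:**
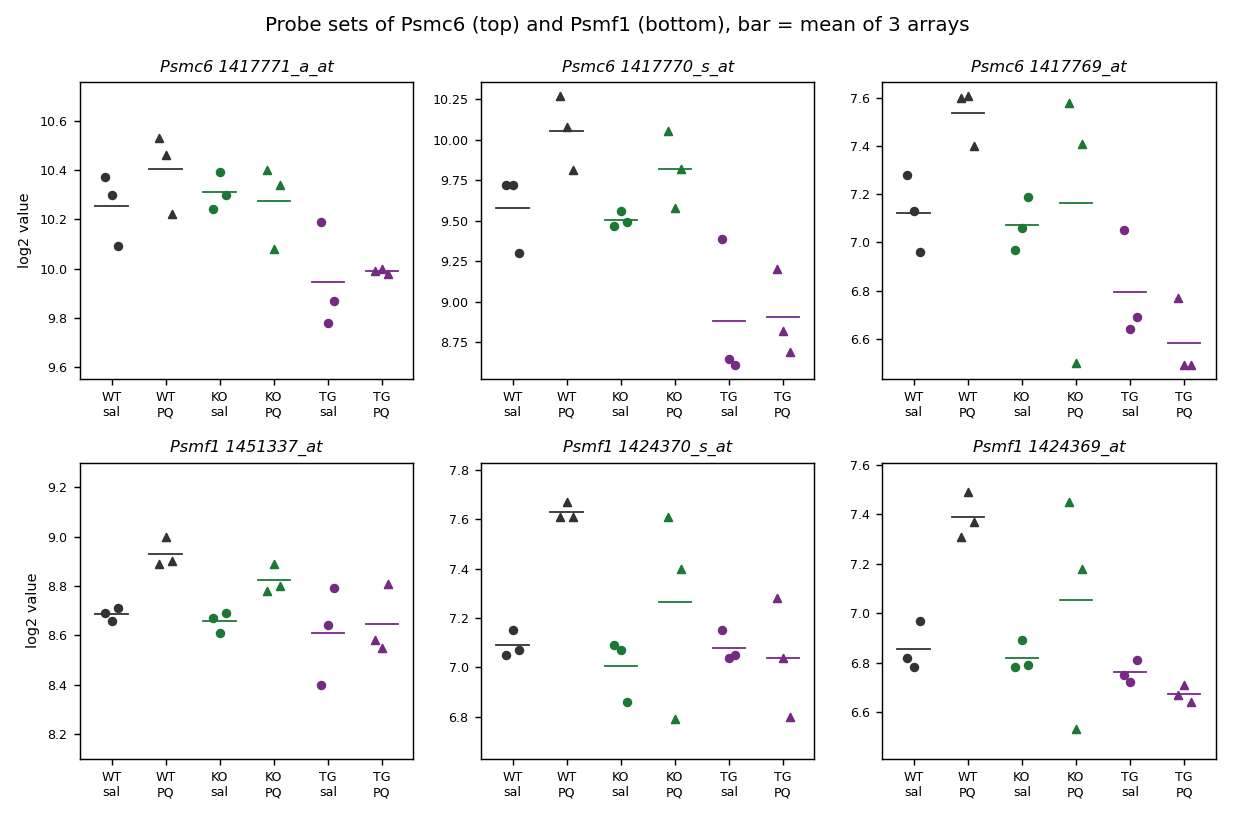
Log2 signal of the 3 probe sets above the filter for each of Psmc6 and Psmf1 on every array by genotype, circles for saline, triangles for paraquat and bars for group means. The first panel of each gene is the probe set used; for both genes the other 2 show wider gaps between transgenic and wild-type paraquat arrays, with differences of -1.15 and -0.96 for Psmc6 and -0.71 and -0.59 for Psmf1.

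Further parts of the pathway came from fixed lists. Of 17 other proteasome parts and partners 12 were measured, and paraquat called 0 of them in any genotype, with 0 at an unadjusted p under 0.05. Transgenic against wild-type mice gave 1 lower under saline, Usp14, a deubiquitinase bound to the base (-0.48, limma adjusted p = 0.035). In the same comparison under paraquat Usp14 was lower (-0.52, limma adjusted p = 0.009). Ube3c, a ubiquitin ligase that acts on the proteasome, was higher there by 0.36 (limma adjusted p = 0.034). On average 5 of 12 fell and 1 rose, with 20.6% and 10.8% of all genes, the falls including Uchl5, the other deubiquitinase of the cap (-0.34), Sem1, a lid subunit (-0.32), and Pomp, which matures the core (-0.21). Of 14 genes that control transcription of proteasome genes 10 were measured. Mafk, a small Maf partner of Nfe2l1 and Nfe2l2, rose in wild-type mice under paraquat by 0.48 (SE 0.10, limma adjusted p = 0.010), with 0 of 45 Psm genes called. In transgenic against wild-type mice under paraquat Mafg rose by 0.53 (limma adjusted p = 0.021) and Nfya, a subunit of the CCAAT-binding factor, by 0.68 (limma adjusted p = 0.0066). Nfe2l1, the factor that raises proteasome genes when the proteasome is inhibited, rose by 0.34 on average (limma adjusted p = 0.021).

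Of 22 ubiquitin and shuttle factors 13 were measured, and paraquat called 0 of them in any genotype, with 1, 3 and 0 at an unadjusted p under 0.05 in wild-type, knock-out and transgenic mice. In transgenic mice under paraquat Ufd1, a cofactor that delivers substrates, was lower than in wild-type mice (-0.54, limma adjusted p = 0.0055), and Sqstm1, an autophagy receptor for ubiquitin, was higher by 0.44 (limma adjusted p = 0.015). Of the 12 interferon and presentation genes, Ifit3, an interferon-induced gene, was lower in transgenic than in wild-type mice. Its difference was -0.91 under saline (limma adjusted p = 0.0022) and -0.47 under paraquat (limma adjusted p = 0.033). On average H2-D1 (0.37) and H2-K1 (0.28), which present the peptides the proteasome makes, and Stat2 (0.39) rose.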

How the data were processed

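Expression was measured on 18 Affymetrix arrays of pooled cerebellar RNA, 3 per group. The deposited values are log2 signals, 1 per probe set and array; RMA is named per the submitters' processing notes, without a version. Scanner files were not used here, so scan batches were not examined. Of 22690 probe sets, 64 were controls, 20380 had 1 symbol in the platform annotation, 691 several and 1555 none; only those with 1 symbol were used, and all 48 symbols of the rule match RefSeq through their gene IDs. The filter required a value at or above the 40th percentile on 3 or more arrays. A single limma model (version 3.58.1, R 4.3.3, lmFit and eBayes) with 6 group means covered all arrays and left 12 residual degrees of freedom; p-values were adjusted over 8320 genes within each comparison (Benjamini-Hochberg, two-sided). Exact permutation of single genes, whose smallest p is 0.1 for 3 and 3 arrays, was not used. Precision is limited by the number of arrays: the 95% interval of a difference between 2 groups was ± 0.24 at the median. The labels do not say that replicate numbers pair the arrays. Only between transgenic saline and transgenic paraquat did the deviations of all 3 same-numbered pairs correlate over 0.1 (0.16, 0.13 and 0.42). Of pairs with different numbers from different groups, 25 of 90 did so, up to 0.44, so a pairing is not established. Named are called members, up to 12 each way, or the leading and extreme ones where none was called, catalytic and immune subunits, the extremes of each role, members whose probe sets disagree, and up to 4 called genes of each list each way; genes singled out otherwise were chosen after their values were seen. The members and lists were chosen with earlier results of these data known. Alternatives were no filter, quantile normalisation, centring, the mean of all probe sets, array weights, only the compared groups, a replicate block and each array left out. The fit was tested on simulated data.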

Additional observations from a re-analysis of the deposited data

How the results depend on the processing

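For the 63 differences of called genes, or of the leading and extreme genes where none was called, no sign changed in 1086 values under other settings; 975 kept their side of the threshold, 102 lost it and 9 gained it. Some smaller differences given in the text did change sign, among them the paraquat differences of Psmb10 in knock-out mice in 5 of 13 settings (-0.08 to 0.10), Psmb5 in wild-type mice in 4 of 14 (-0.05 to 0.07) and Psmb4 in wild-type mice in 1 of 14 (-0.01 to 0.15). The counts of called Psm genes moved as follows. For paraquat in wild-type mice (0) they were 1 with the mean of all probe sets, 3 with array weights and 2 with the compared groups alone; in knock-out mice 7 with weights; in transgenic mice 1 with weights. For the paraquat average (0) they were 1 with quantile normalisation, 1 with centring, 8 with weights, and 0 to 1 when 1 array was left out. For knock-out against wild-type mice under saline weights gave 1, and for the transgenic minus wild-type paraquat difference 1. For transgenic against wild-type mice under saline (2), no filter gave 1, quantile normalisation 6, centring 5, the mean of probe sets 4, weights 20 and single arrays left out 0 to 7. Under paraquat (12), weights gave 24 and left-out arrays 4 to 18. The averages of transgenic against wild-type (16) and against knock-out mice (14) gave 29 and 29 with weights, and 13 to 22 and 11 to 20 with an array left out. With weights, 49.4% and 49.6% of all genes were called under saline and paraquat, and 61.7% and 63.9% in the 2 averages. The cause of these moves was not tested. The replicate block over all arrays left the counts at 0, 2, 12, 16 and 14. Within the transgenic arrays a block that took same-numbered arrays as pairs called 0 Psm genes and 0.0746% of all genes by paraquat. The labels do not give such pairs. Over all pairs of groups 17 of 45 same-numbered pairs of arrays correlated over 0.1. Without scanner files, signal over background could not be set beside the values of the low genes Psma8, Psmb8 and Psmb9.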
